A study of Mus musculus with 39 samples.

Results

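The genes described here are named for the proteins of the cytosolic ribosome in mouse, which nearly all of them encode. They were taken by symbol from the gene count table: every Rpl or Rps symbol with a number and at most 1 closing letter a, l or x, together with Rplp0, Rplp1, Rplp2 and Rpsa. Symbols of processed pseudogenes named with -ps were left out. The rule gave 83 of 55011 gene symbols, of which 51 name proteins of the large subunit (Rpl) and 32 proteins of the small subunit (Rps). Among the 83, 76 are the core genes and 7 have a symbol ending in l, which marks a copy or paralogue: Rpl3l, Rpl6l, Rpl10l, Rpl32l, Rpl39l, Rps4l and Rps27l. Rpl6l, Rpl32l and Rps4l are annotated as processed pseudogenes that are not named with -ps, so the rule kept them, and the other 80 are annotated as protein coding.

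The study asked what γδ T cells that make IL-17A do in the repair of skeletal muscle, and all muscle samples followed an injury of the hindlimb with cardiotoxin, a venom toxin that destroys muscle fibres. Whole tibialis anterior muscle was collected on days 1, 3, 7 and 14 from Tcrd-DTR mice, here called DTR, and from wild-type mice, here called WT. DTR mice carry the diphtheria toxin receptor at the Tcrd gene, which marks γδ T cells. Both genotypes received diphtheria toxin into the peritoneum, so the toxin is shared and the difference is the depletion of γδ T cells in DTR mice. There were 3 libraries for each genotype and day, except for 2 at day 7 in DTR mice. Further wild-type muscles were taken on day 7 after recombinant IL-17A (rIL-17A, 2 libraries) or PBS (2 libraries), both given into the peritoneum and into the muscle. Muscle satellite cells, the stem cells of muscle, were sorted on day 1 from injured muscle of DTR and WT mice given diphtheria toxin (3 libraries each). Vγ6 T cells were sorted from injured muscle on day 3 and from the colonic lamina propria of uninjured animals (3 libraries each), all from wild-type mice with no other treatment. Each sorted library came from 1000 cells and each whole-muscle library from 2 ng of RNA.

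Ribosomal proteins assemble with ribosomal RNA into a small subunit, which reads the mRNA, and a large subunit, which joins the amino acids. Because nearly every ribosome holds 1 copy of most of these proteins, their genes are usually expressed together, and cells that grow or divide hold more of their mRNA than resting fibres. Many of the mRNAs begin with a C followed by a run of pyrimidines, the 5′ terminal oligopyrimidine (TOP) tract, through which mTORC1 signalling and the protein LARP1 control their translation. Rpl3l is a copy of Rpl3 that is used in heart and skeletal muscle, where mature fibres carry Rpl3l in place of much of their Rpl3.

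The starts of 6 ribosomal protein genes show the tract at the first transcribed base. Each line holds 40 bases before and 15 bases from the RefSeq transcription start (GRCm38.p6), 5′ to 3′ on the gene's strand, and capitals mark the unbroken pyrimidine tract. They are shown because Rpl35, Rplp2, Rps6 and Rps10 reappear among the changed genes, with Rps18 and Rpl38 as further examples of the tract.
Rpl35 (chr2:39005117-39005171, minus strand): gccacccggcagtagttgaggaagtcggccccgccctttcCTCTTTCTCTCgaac
Rps6 (chr4:86857353-86857407, minus strand): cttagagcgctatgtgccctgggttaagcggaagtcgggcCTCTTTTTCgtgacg
Rplp2 (chr7:141447611-141447665, plus strand): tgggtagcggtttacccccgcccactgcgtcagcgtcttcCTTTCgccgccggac
Rpl38 (chr11:114668540-114668594, plus strand): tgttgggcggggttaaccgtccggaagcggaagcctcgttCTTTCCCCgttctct
Rps10 (chr17:27635230-27635284, minus strand): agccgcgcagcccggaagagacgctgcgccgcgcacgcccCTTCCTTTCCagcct
Rps18 (chr17:33955651-33955705, minus strand): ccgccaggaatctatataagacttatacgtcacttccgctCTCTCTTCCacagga
The start of the muscle paralogue Rpl3l shown next has no such tract, like most member starts. In the next line the capitals mark CAGCTG, an E-box of the kind that myogenic factors such as MyoD bind.
Rpl3l (chr17:24727786-24727840, plus strand): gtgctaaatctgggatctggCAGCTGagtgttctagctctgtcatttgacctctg

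RefSeq held a start for 61 of the 83 genes, with 73 starts in all, and 22 genes had no entry. A C followed by at least 4 pyrimidines at the first base was found at 14 of the 73 starts (19.2%), that of the pseudogene Rpl32l among them, against 823 of 32851 starts of all genes (2.51%). The letters CTTTCC, on either strand of the 300-base window from 250 bases before to 50 bases after the start, were found at 36 of 73 member starts (49.3%), against 26.6% of all starts. CAGCTG, which reads the same on both strands, was found in that window at 4 of 73 member starts (5.48%), against 16.3% of all. These were the starts of Rpl6, Rpl10l and Rpl35 and the printed start of Rpl3l. Another annotated start of Rpl3l did not hold it. These matches describe the letters in 1 annotated start each. A start set a few bases away from the true one hides a tract.

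Rpl3 (chr15:80077791-80091868, minus strand, GRCm38) encodes 403 amino acids and helps to shape the site where peptide bonds form, and Rpl3l (chr17:24727820-24736143, plus strand) encodes 407. Over the 1209 coding bases that align, 899 were identical (74.4%), and the longest identical run was 22 bases. The first 90 coding bases of the annotated transcripts are shown with the 21 differing bases in capitals, since the comparison of the pair rests on reads that can tell them apart.
Rpl3l: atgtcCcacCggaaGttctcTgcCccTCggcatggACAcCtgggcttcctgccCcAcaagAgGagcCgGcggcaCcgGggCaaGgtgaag
Rpl3: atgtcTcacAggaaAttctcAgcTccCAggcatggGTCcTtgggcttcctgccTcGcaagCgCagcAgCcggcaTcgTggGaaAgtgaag
Most members have near-identical processed copies elsewhere in the genome, and the table lists 319 -ps symbols of this family. These held between 0.303% and 1.09% of the members' own count per library. How reads that match several places were counted is not given in the sources used here, so single values of genes with such copies are uncertain.

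The 39 libraries held 2372139 to 10974862 counts. Of the members, 80 passed the filter on low counts in the time course (not Rpl6l, Rpl10l and Rpl32l) and 79 in each other comparison. The cell labels held against their markers. The summed level of satellite cell markers was 4703 to 6783 CPM (counts per 1000000 counts of the library) in satellite cells, and that of T cell markers was 4808 to 7417 CPM in Vγ6 cells. Mature myofibre markers summed to 28828 to 243446 CPM in whole muscle. Olfactory and vomeronasal receptor counts, which muscle should lack, stood out in replicate 2 of day 1 DTR muscle (2880 CPM) and replicate 3 of day 7 WT muscle (1383 CPM), and replicate 1 of the DTR satellite cells held 4443 CPM of mature myofibre markers against 94.1 to 128 CPM in the other satellite cell libraries. Counts of changed members that rest on these libraries are given with and without them.

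The share of all counts that fell on the 83 genes was highest in satellite cells and lowest in muscle 14 days after injury. In satellite cells it was 5.60%, 5.55% and 5.90% in DTR mice, against 6.28%, 5.89% and 7.42% in WT mice. In Vγ6 T cells it was 4.08%, 4.23% and 4.11% in muscle, against 4.25%, 4.39% and 4.61% in colon. The sorted cells of both kinds lay above every whole-muscle library.

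In DTR muscle the summed share was 1.84%, 2.89% and 1.85% on day 1, 3.11%, 2.86% and 3.41% on day 3, 1.25% and 1.44% on day 7, and 0.97%, 0.95% and 1.15% on day 14. In WT muscle it was 2.06%, 2.00% and 1.76% on day 1, 3.90%, 3.28% and 3.30% on day 3, 1.01%, 1.26% and 1.38% on day 7, and 0.83%, 0.84% and 0.90% on day 14. Day 3 was the peak in both genotypes. Without replicate 2 the day 1 DTR libraries lay within the range of the WT libraries of that day. On day 14 all 3 DTR libraries lay above all 3 WT libraries. In muscle of wild-type mice on day 7 the share was 1.24% and 1.32% after rIL-17A, against 1.44% and 1.07% after PBS, and the groups overlapped.

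**Figure D1:**
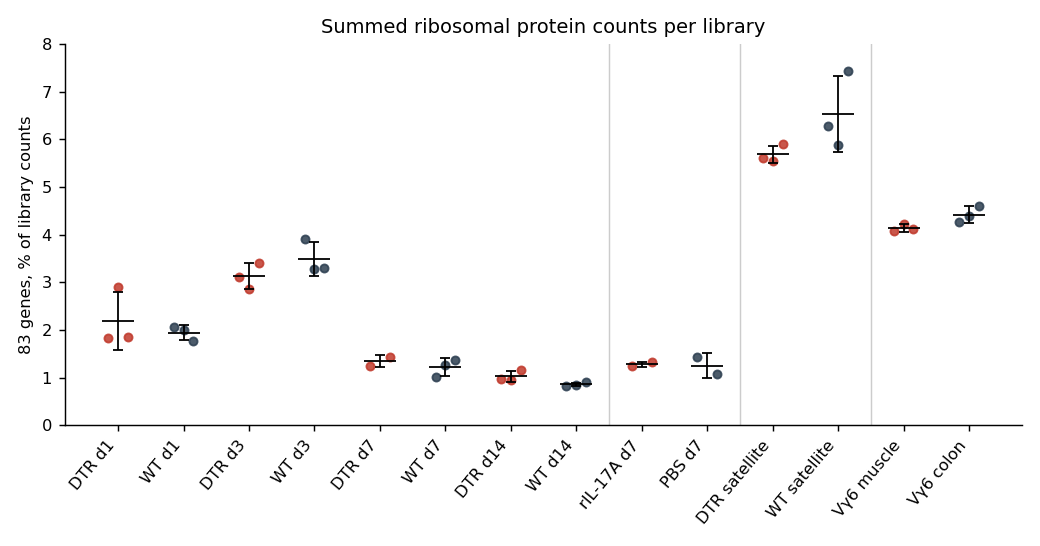
Summed share of library counts (%, y axis) held by the 83 ribosomal protein genes in each group (x axis). Points are libraries and bars the group mean ± SD. Satellite cells (means of 5.68% in DTR and 6.53% in WT mice) and Vγ6 cells (4.14% in muscle and 4.42% in colon) lie above all whole-muscle groups, and whole muscle peaks on day 3.

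Mean levels peaked on day 3 in nearly the whole family. The group mean CPM was highest on day 3 for 76 of 76 core genes in DTR muscle and for 75 of 76 in WT muscle, where Rps2 was highest on day 1. It was lowest on day 14 for 59 of 76 core genes in DTR muscle and for 70 of 76 in WT muscle. The share of all genes with such a peak or low is not given here. Scaled to library size alone, as CPM is, the median gene also rose to day 3 and then fell. Its log2 fold change from day 1 to day 3 was 0.12 in DTR and 0.40 in WT muscle. From day 3 to day 7 it was -1.20 and -0.74, and from day 7 to day 14 it was 0.41 and 0.10. In whole tissue, a change in the number of cells of a type and a change in mRNA per cell cannot be told apart. The levels moved with those of other cells: the summed macrophage markers were 1044 to 2334 CPM on day 1, 8115 to 9842 CPM on day 3, 429 to 1648 CPM on day 7 and 138 to 296 CPM on day 14 in DTR muscle. In WT muscle they were 1199 to 2647, 8673 to 14337, 454 to 728 and 140 to 174 CPM on the same days. The part of these cells in the results was not tested.

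The steps between days were tested with edgeR's quasi-likelihood test, with Benjamini-Hochberg adjustment over 18264 genes and a threshold of 0.05. From day 1 to day 3, 13 of 80 members rose and 1 fell in DTR muscle, and 42 of 80 rose and 1 fell in WT muscle. Of all genes tested, 8.48% rose and 5.85% fell in DTR muscle, and 9.58% rose and 9.36% fell in WT muscle. The median log2 fold change of the members was 0.35 in DTR muscle, against -0.10 for all genes, and 0.54 in WT muscle, against -0.00031 for all genes. All 13 members that rose in DTR muscle were among the 42 that rose in WT muscle (31.0% of them). The gene that fell in both genotypes was Rpl3l.

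The largest early rises in WT muscle were those of Rpl39, Rps28 and Rpl36a. Rpl39, which lines the tunnel through which the new chain leaves, had 41.5, 63.2 and 58.7 CPM on day 1 and 186, 175 and 161 CPM on day 3 in WT muscle (log2 fold change 1.28 ± 0.21 SE, adjusted p = 2.53e-05). Rps28, which sits where the mRNA leaves the small subunit, had 96.1, 88.1 and 96.0 CPM on day 1 and 279, 246 and 264 CPM on day 3 (1.10 ± 0.19, adjusted p = 6.78e-05). Rpl36a, which lines the exit site of the tRNA, rose by 1.05 ± 0.21 (adjusted p = 0.000373). In each of these genes every day 3 library lay above every day 1 library. In DTR muscle the members with the largest rise were Rpl3 (0.94 ± 0.24, adjusted p = 0.0056), Rpl41, a very short protein between the subunits (0.77 ± 0.21, adjusted p = 0.0082), and Rps19, a small subunit protein mutated in Diamond-Blackfan anaemia (0.68 ± 0.20, adjusted p = 0.0171). The count of 14 changed members in DTR muscle was 1 without replicate 3 of day 3, 2 without replicate 1 or replicate 3 of day 1, and 23 without replicate 2 of day 1. In WT muscle the count of 43 was 24 without replicate 3 of day 1 and 23 without replicate 1 of day 3.

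From day 3 to day 7 more members were called lower in WT muscle than in DTR muscle, which had 2 libraries on day 7. These counts come from separate tests and are no test between the genotypes. In the direct test of genotype by day, given below, 0 of 80 members passed. In DTR muscle 22 of 80 members fell and 2 rose, and in WT muscle 66 of 80 fell and 2 rose. Of all genes tested, 18.4% fell and 17.1% rose in DTR muscle, and 19% fell and 17.9% rose in WT muscle. The median log2 fold change of the members was -0.29 in DTR muscle, against -0.22 for all genes, and -0.81 in WT muscle, against 0.04 for all genes. Without replicate 3 of day 7 WT muscle 66 fell and 2 rose in WT muscle, with a median of -0.90, against -0.15 for all genes. Of the 22 members that fell in DTR muscle, 21 (95.5%) also fell in WT muscle, where they were 31.8% of those that fell. Scaling to library size alone, without the composition factors of edgeR, moved the median of all genes to -1.20 in DTR and -0.74 in WT muscle. Relative to that shift the members lay at -0.08 in DTR muscle and -0.86 in WT muscle, where the scaling used here gave -0.07 and -0.85. Scaling shifts all genes of a comparison nearly alike, so these values had to be close and are no second check. Under library size alone, 76 members fell in DTR muscle and 75 in WT muscle, so the size of the DTR count follows the scaling. The share of all genes that fell under that scaling is not given here.

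Rps12, which forms part of the beak of the small subunit and in Drosophila is needed for cell competition, fell most of all members in both genotypes. In DTR muscle it had 409, 340 and 224 CPM on day 3 and 30.1 and 33.7 CPM on day 7 (log2 fold change -2.35 ± 0.28 SE, adjusted p = 2.21e-08). In WT muscle it had 458, 470 and 434 CPM on day 3 and 19.2, 31.1 and 55.5 CPM on day 7 (-2.94 ± 0.24, adjusted p = 1.64e-11). No day 7 library reached any day 3 library. On day 14 Rps12 had 72.7, 65.8 and 89.8 CPM in DTR muscle and 54.3, 60.0 and 63.5 CPM in WT muscle. It was the only core member called higher on day 14 than on day 7, by 0.89 ± 0.27 in DTR muscle (adjusted p = 0.0104) and by 0.67 ± 0.24 in WT muscle (adjusted p = 0.0438). Neither later call was held throughout: without replicate 1 or 2 of day 7 DTR muscle the adjusted p was 0.0521 and 0.0779, and leaving out 1 library at a time gave 0.00143 to 0.228 in WT muscle.

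Other large falls from day 3 to day 7 in WT muscle were those of Rps10, at the mRNA entry side of the small subunit (-1.87 ± 0.25, adjusted p = 1.91e-07), and Rpl12, at the base of the stalk that elongation factors touch (-1.82 ± 0.21, adjusted p = 6.16e-09). In DTR muscle they were those of Rps2, which lines the mRNA entry channel (-1.78 ± 0.64, adjusted p = 0.0393), and Rpl13a, a large subunit protein (-1.44 ± 0.29, adjusted p = 0.000137). Rps2 lost its call whenever 1 library of either day was left out (adjusted p from 0.0539 to 0.171). The paralogues Rpl3l and Rps27l were the 2 members that rose in both genotypes.

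From day 7 to day 14 most members fell in both genotypes. In DTR muscle 54 of 80 members fell and 1 rose, and in WT muscle 50 of 80 fell and 1 rose. Of all genes tested, 19.7% fell and 14.6% rose in DTR muscle, and 13.2% fell and 4.14% rose in WT muscle. The median log2 fold change of the members was -0.76 in DTR muscle, against 0.02 for all genes, and -0.69 in WT muscle, against -0.03 for all genes. The number called in WT muscle was 40 without replicate 3 of day 7 and 31 without its replicate 2. The genotypes shared 45 members that fell, 83.3% of those in DTR muscle and 90% of those in WT muscle.

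Rpl35, which sits at the mouth of the tunnel and has the 11-base tract printed above, was among the largest of these falls. It had 82.8 and 87.1 CPM on day 7 and 31.8, 24.0 and 46.9 CPM on day 14 in DTR muscle (-1.66 ± 0.27, adjusted p = 1.48e-05). In WT muscle it had 62.1, 74.9 and 60.6 CPM on day 7 and 24.8, 23.4 and 33.4 CPM on day 14 (-1.42 ± 0.25, adjusted p = 0.000124). The days did not overlap in either genotype. Rpl3 fell by 2.16 ± 0.27 in DTR muscle (adjusted p = 3.21e-07) and by 1.64 ± 0.25 in WT muscle (adjusted p = 1.77e-05). Rps14, part of the platform of the small subunit, fell by 1.60 ± 0.21 in DTR muscle (adjusted p = 7.94e-07). Of the 13 tested genes with a tract at their start, 10 fell in DTR muscle and 9 in WT muscle, with a median of -0.99 in DTR muscle, against -0.73 for the other members, and -0.92 in WT muscle, against -0.69 for the other members. From day 3 to day 7 the order was the other way, with a median of -0.17 for these genes in DTR muscle, against -0.34 for the other members, and -0.71 in WT muscle, against -0.83. From day 1 to day 3 the medians were 0.35 in DTR muscle, against 0.35, and 0.52 in WT muscle, against 0.54. The other members include tested genes without a RefSeq start, Rpl3 among them, so they are not a group known to lack the tract. The differences between these medians were not tested.

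**Figure D2:**
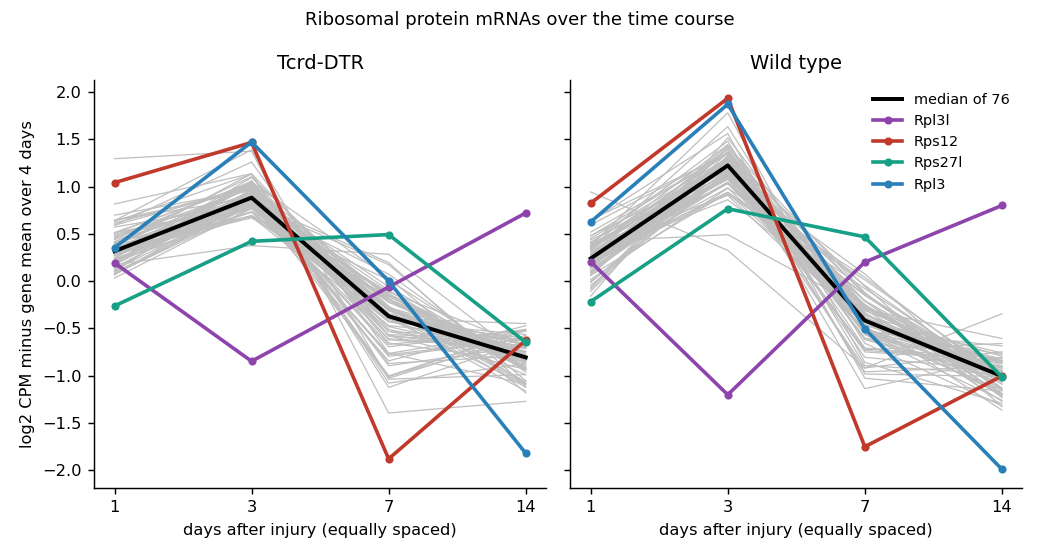
Log2 CPM of each core gene minus its mean over the 4 days (y axis) by day after injury (x axis, days 1, 3, 7 and 14, equally spaced), in DTR (left) and WT (right) muscle. Grey lines are core genes, the black line is their median, and Rpl3l, Rps12, Rps27l and Rpl3 are in colour. Levels peak on day 3 in both genotypes, when Rps12 has 224 to 409 CPM in DTR and 434 to 470 CPM in WT muscle, and Rps12 is lowest on day 7.

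The mean proportions of the members differed between groups, by ranges that also hold the spread between libraries. Expressed as a share of the summed core counts, which no scaling between libraries changes, the mean of a member varied over the 10 whole-muscle groups by a median of 1.49-fold. In 58 of 76 core members the range was under 2-fold. Among the narrowest ranges were those of Rps3, at the mRNA entry site (1.14-fold), Rpl9 (1.16-fold) and Rpl7 (1.17-fold). The widest was that of Rps12 (6.33-fold), with 1.32% of core counts on day 3 in WT muscle and 0.21% in PBS-treated muscle on day 7. Rps2 followed (6.29-fold), with 3.29% on day 1 in WT muscle and 0.52% in PBS-treated muscle. Rpl3 varied 4.33-fold, with 2.58% in PBS-treated muscle and 0.60% on day 14 in WT muscle.

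Rps2 also varied widely between libraries of 1 group. On day 14 it had 229, 76.7 and 36.9 CPM in DTR muscle, against 255, 243 and 263 CPM in WT muscle, and on day 7 it had 101 and 108 CPM in DTR muscle, against 57.7, 115 and 339 CPM in WT muscle. In satellite cells it had 1519, 1544 and 1454 CPM in DTR mice, against 1604, 1542 and 2247 CPM in WT mice. In Vγ6 cells it had 46.9, 62.2 and 69.3 CPM in muscle, against 67.4, 77.8 and 65.3 CPM in colon. Its share of core counts spanned 22.8-fold over all 14 groups, with the lowest value (0.14%) in muscle Vγ6 cells. Rps2 (chr17:24718116-24721929, plus strand) ends 5890 bases before the start of Rpl3l.

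The exchange between Rpl3 and its muscle copy was the clearest change within the family. Per kilobase of transcript, Rpl3 averaged 219 ± 84.9 CPM on day 1, 476 ± 125 on day 3, 172 ± 64.9 on day 7 and 48.6 ± 8.85 on day 14 in DTR muscle (SD, n = 3, 3, 2 and 3). Rpl3l averaged 327 ± 54.9, 159 ± 24.9, 274 ± 74.1 and 472 ± 36.8 CPM per kilobase on these days. In WT muscle Rpl3 averaged 212 ± 24.5, 503 ± 115, 96.8 ± 20.8 and 34.6 ± 6.44 CPM per kilobase, and Rpl3l 305 ± 31.0, 115 ± 66.8, 304 ± 52.0 and 460 ± 42.1 (SD, n = 3 each). Rpl3 was thus above Rpl3l on day 3 and below it on days 1, 7 and 14 in the mean of both genotypes.

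As a percentage of the counts of the pair, Rpl3l held 73.0%, 48.1% and 61.2% on day 1, 25.2%, 33.8% and 19.3% on day 3, 72.5% and 50.9% on day 7, and 91.8%, 91.7% and 89.0% on day 14 in DTR muscle. In WT muscle it held 61.2%, 54.8% and 62.2% on day 1, 7.67%, 19.6% and 30.9% on day 3, 71.9%, 72.1% and 83.4% on day 7, and 91.2%, 93.3% and 94.6% on day 14. Every day 3 library lay below, and every day 14 library above, the libraries of the other days in both genotypes. Relative to day 1, Rpl3l fell on day 3 by 1.31 ± 0.30 in DTR muscle (adjusted p = 0.0034) and by 1.79 ± 0.31 in WT muscle (adjusted p = 0.000116). From day 3 to day 7 it rose by 1.80 ± 0.33 in DTR muscle (adjusted p = 9.68e-05) and by 2.16 ± 0.31 in WT muscle (adjusted p = 2.81e-06). Its change from day 7 to day 14 was 0.38 ± 0.34 in DTR muscle (adjusted p = 0.399) and 0.49 ± 0.30 in WT muscle (adjusted p = 0.284). Both estimates lay above 0 without passing the threshold, while Rpl3 was called lower. The fall of Rpl3 and any rise of Rpl3l both move the percentage in that step. The rise of Rpl3 on day 3 was 0.85 ± 0.24 in WT muscle (adjusted p = 0.00992), with adjusted p = 0.0546 without replicate 3 of day 1 and 0.0842 without replicate 1 of day 3. In DTR muscle it lost its call without replicate 3 of day 3 (adjusted p = 0.091).

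Over the 4 days the summed mature myofibre markers moved in the same order as the percentage of Rpl3l. They were 95685 to 163951 CPM on day 1, 70340 to 95831 CPM on day 3, 203868 to 219385 CPM on day 7 and 234524 to 235715 CPM on day 14 in DTR muscle. In WT muscle they were 146609 to 182237, 28828 to 95295, 192399 to 211960 and 221989 to 243446 CPM. Within day 7 the sums overlapped between the genotypes, while the mean percentage of Rpl3l was 61.7% in DTR and 75.8% in WT muscle. The part of the fibre markers in the exchange was not tested. In cells without fibres Rpl3l was near 0: it had 75, 1 and 1 counts in satellite cells of DTR mice, against 2, 0 and 0 in WT mice, and 1, 0 and 0 counts in muscle Vγ6 cells, against 0, 3 and 3 in colonic ones. The 75 counts (1.02% of the pair, 95% exact binomial interval 0.806% to 1.28%, counting error only) came from the satellite cell library that also held mature myofibre markers.

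**Figure D3:**
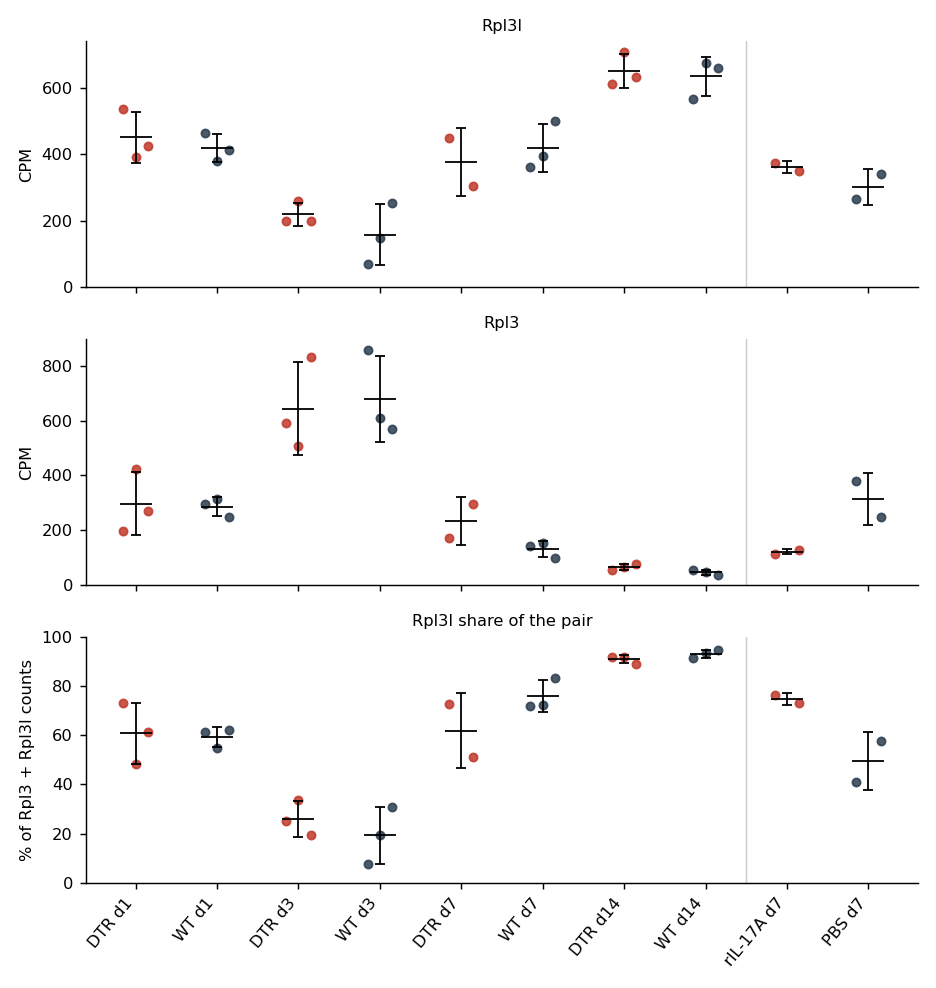
Levels of Rpl3l and Rpl3 (CPM, upper panels) and the percentage of their summed counts that fell on Rpl3l (lowest panel) in whole muscle by group (x axis), with points for libraries and bars for the group mean ± SD. The percentage is lowest on day 3 (means of 26.1% in DTR and 19.4% in WT muscle) and highest on day 14 (90.8% and 93.1%), and lies at 74.8% after rIL-17A and 49.4% after PBS on day 7.

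The percentage of Rpl3l overlapped between the genotypes on every day. Averaged within days, DTR minus WT was -2.06 percentage points (exact permutation test within days, two-sided, p = 0.6105 over 80000 relabellings). By day the difference was 1.38 points on day 1 (exact p = 0.9), 6.73 on day 3 (exact p = 0.5), -14.1 on day 7 (exact p = 0.3) and -2.25 on day 14 (exact p = 0.3), where 0.1 is the smallest p each day allows. The difference within days was 0.64 points without replicate 2 of day 7 DTR muscle, so its direction rested on that library.

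Of the other paralogues, only Rps27l and Rps4l were read at more than trace level. Rps27l, a copy of Rps27 that p53 induces, had 145 and 169 CPM on day 7 and 74.8, 49.3 and 89.4 CPM on day 14 in DTR muscle, and 136, 133 and 128 CPM on day 7 and 49.8, 44.1 and 48.0 CPM on day 14 in WT muscle. It fell in this step by 1.50 ± 0.22 in DTR muscle (adjusted p = 3.6e-06) and by 1.62 ± 0.21 in WT muscle (adjusted p = 9.19e-07), with no overlap between the days. Unlike most members it was called higher on day 7 than on day 3, by 1.05 ± 0.22 in DTR muscle (adjusted p = 0.000191) and by 0.50 ± 0.20 in WT muscle (adjusted p = 0.0423). That call followed the scaling: with library size alone the change was 0.07 in DTR muscle (adjusted p = 0.811) and -0.30 in WT muscle (adjusted p = 0.206).

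Rps4l, a pseudogene annotated as transcribed, fell from day 3 to day 7 in WT muscle by 1.43 ± 0.34 (adjusted p = 0.000732) and from day 7 to day 14 in DTR muscle by 1.59 ± 0.41 (adjusted p = 0.00311). The later call was lost without replicate 2 of day 7 DTR muscle (adjusted p = 0.0798), while the earlier one was kept with any 1 library left out (adjusted p at most 0.00832). Rpl39l, which in mouse is used in male germ cells, had 366 counts in all, with at most 9.97 CPM, reached in a Vγ6 library from muscle. Its coding sequence matched Rpl39 at 85.3% of bases with an identical run of 38 bases. Rpl10l, another germ cell copy, had 24 counts in 11 libraries, Rpl32l 59 counts in 30 and Rpl6l 96 counts in 30.

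Few of these genes passed the test between the genotypes. Between DTR and WT muscle, 0 of 80 members passed on day 1, 0 on day 3, 1 on day 7 and 0 on day 14. Of all genes tested, 0% passed on days 1 and 3, 2.01% on day 7 (0.641% higher and 1.37% lower) and 0.0767% on day 14 (0.0383% higher and 0.0383% lower). At an unadjusted p under 0.05 the members numbered 0 on day 1, 2 on day 3, 31 on day 7 and 17 on day 14, against 777, 873, 3782 and 1045 of all 18264 genes. DESeq2 called 0 members on days 1, 3 and 14 and 3 on day 7.

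On day 1 the members had a median log2 fold change of 0.02 between DTR and WT muscle, against 0.01 for all genes. The smallest p values were those of Rpl30 (0.30 ± 0.19) and Rpl39 (0.31 ± 0.21), both with an adjusted p of 0.998. Without replicate 2 of DTR muscle the median was -0.05, against 0.02 for all genes, and Rpl30 differed by 0.23 and Rpl39 by 0.13 (adjusted p = 0.998 for both), with 0 members called. On day 3 the median was -0.15, against -0.01 for all genes, and 73 of 80 members lay below 0. Rps10 had 44.8, 39.2 and 31.7 CPM in DTR muscle, against 60.4, 52.5 and 53.4 CPM in WT muscle (-0.50 ± 0.24, adjusted p = 1). Rps12 had 409, 340 and 224 CPM in DTR muscle, against 458, 470 and 434 CPM in WT muscle (-0.46 ± 0.23, adjusted p = 1). Both genes were lower in all 3 DTR libraries than in any WT library, and neither passed the test. On that day the macrophage markers summed to 8115 to 9842 CPM in DTR muscle and 8673 to 14337 CPM in WT muscle, and their part was not tested.

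On day 7 the sign was the other way. Of 80 members, 75 lay above 0, with a median of 0.38, against -0.02 for all genes. With library size alone these medians were 0.14 and -0.25. The members lay 0.41 above the median gene by one scaling and 0.39 by the other. Scaling shifts all genes of a comparison nearly alike, so these 2 values had to be close and are no second check. Without replicate 3 of WT muscle the median was 0.39, against 0.01 for all genes. Rpl3 was the member that passed, with 170 and 294 CPM in DTR muscle, against 141, 153 and 99.0 CPM in WT muscle (1.01 ± 0.26, adjusted p = 0.0356). The groups did not overlap, but the call was lost with library size alone (adjusted p = 0.0997), in a fit of that day alone (adjusted p = 0.0985), without replicate 3 of WT muscle (0.78, adjusted p = 0.167) and without replicate 2 of DTR muscle (0.71, adjusted p = 0.367). Rpl3l differed by 0.12 ± 0.33 (adjusted p = 0.876). The regenerating myofibre markers summed to 1170 to 2813 CPM in DTR muscle and 663 to 1320 CPM in WT muscle on that day, and their part was not tested.

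On day 14, 78 of 80 members lay above 0, with a median of 0.29, against 0.01 for all genes. Rpl21, a large subunit protein, had 146, 115 and 177 CPM in DTR muscle, against 98.3, 95.6 and 97.2 CPM in WT muscle (0.57 ± 0.19, adjusted p = 0.452). Rps27l had 74.8, 49.3 and 89.4 CPM in DTR muscle, against 49.8, 44.1 and 48.0 CPM in WT muscle (0.58 ± 0.21, adjusted p = 0.57). All DTR libraries lay above the WT libraries for Rpl21, while for Rps27l the lowest DTR library lay just under the highest WT library. In the test of whether the genotype difference changed with the day, 0 of 80 members passed, against 0.608% of all genes tested, and 8 had an unadjusted p under 0.05, against 2467 of all genes. DESeq2 also called 0, and 0 passed without replicate 2 of day 1 DTR muscle or replicate 3 of day 7 WT muscle. The smallest p values were those of Rpl3 (adjusted p = 0.215), Rpl17 (adjusted p = 0.283) and Rps18 (adjusted p = 0.299). Without the filter on low counts Rpl3 passed (adjusted p = 0.0184).

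After recombinant IL-17A some of these genes were higher and some lower than after PBS, no more often than genes at large. Their summed share overlapped between the groups. With 12896 genes tested, 12 of 79 members were higher and 11 lower after rIL-17A than after PBS, while 18.1% of all genes were higher and 16.1% lower. The median log2 fold change of the members was 0.02, against 0.05 for all genes. In either direction 29.1% of members and 34.1% of all genes passed, so the share of members called was not above the background, and they are described for the size and order of their changes. With 2 libraries in each group, the count of 23 became 13 without replicate 1 and 12 without replicate 3 of rIL-17A. It split into 18 higher and 7 lower without replicate 1 of PBS, and into 9 higher and 19 lower without its replicate 3.

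Rps2 and Rps12 were highest above PBS. Rps2 had 381 and 359 CPM after rIL-17A, against 80.5 and 47.5 CPM after PBS (log2 fold change 2.40 ± 0.25 SE, adjusted p = 4.86e-05). In WT muscle of the time course on day 7, however, Rps2 had 171 ± 149 CPM (mean ± SD). The SE above rests on the libraries of the rIL-17A comparison alone and leaves that spread out. Rps12 had 93.2 and 120 CPM after rIL-17A, against 29.7 and 20.7 CPM after PBS (1.92 ± 0.24, adjusted p = 0.000181). Rplp2, an acidic protein of the stalk whose start holds a 5-base tract, had 165 and 178 CPM after rIL-17A, against 76.2 and 56.1 CPM after PBS (1.23 ± 0.21, adjusted p = 0.00118). The groups did not overlap for any of these 3 genes, but they were picked for their large fold, so this adds no support. Others that were higher included Rps20, Rpsa, which is also known as the laminin receptor, Rpl10, Rpl22, Rpl29, Rpl30, Rpl39 and Rplp1, the partner of Rplp2 in the stalk.

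Rpl3 was lowest relative to PBS. It had 115 and 128 CPM after rIL-17A, against 380 and 248 CPM after PBS (-1.51 ± 0.22, adjusted p = 0.000434). Rpl6, a large subunit protein, had 122 and 130 CPM after rIL-17A, against 290 and 210 CPM after PBS (-1.13 ± 0.21, adjusted p = 0.00168). Rps27l had 70.7 and 83.4 CPM after rIL-17A, against 172 and 121 CPM after PBS (-1.07 ± 0.22, adjusted p = 0.00291). Every library after rIL-17A lay below both after PBS for these genes, which were likewise picked for their fold. Others that were lower included Rpl35, Rpl41, Rps6, the target of S6 kinase, Rps14, Rps19, Rps26 and Rps27. Rps2, Rps12, Rplp2, Rpl3, Rpl6 and Rps27l kept their call when any 1 library was left out (adjusted p at most 0.0239). Among the 13 tested genes with a tract, Rplp2 was higher and Rpl35, Rps6 and Rps27 lower, with a median of 0.02, against 0.01 for the other members.

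**Figure D4:**
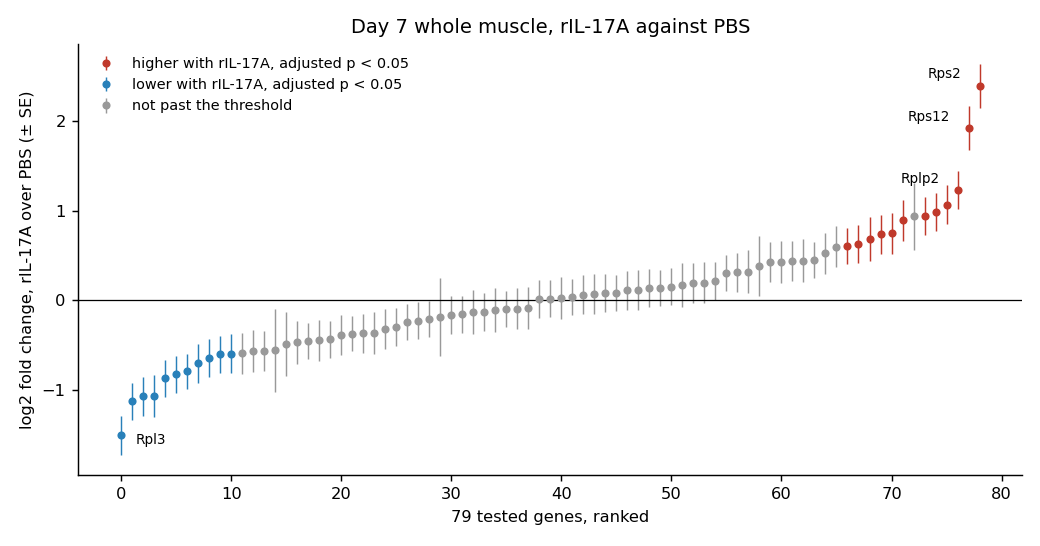
Log2 fold change of each tested ribosomal protein gene after rIL-17A relative to PBS on day 7 (y axis, points with bars of ± SE), ordered by size along the x axis, with members past the adjusted p threshold of 0.05 in red (higher) or blue (lower). The order runs from Rps2 (2.40) and Rps12 (1.92) to Rpl3 (-1.51).

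**Figure D5:**
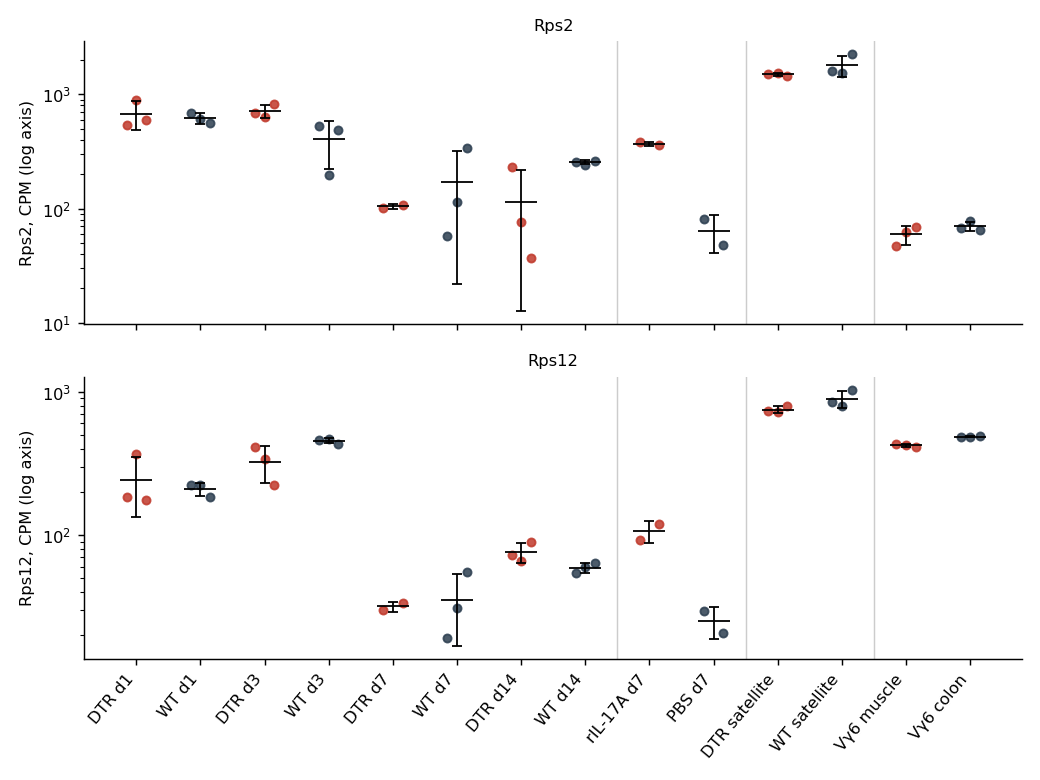
Levels of Rps2 and Rps12 (CPM, y axis, log scale) by group (x axis), with points for libraries and bars for the mean ± SD. Both genes are higher after rIL-17A (381 and 359 CPM for Rps2, 93.2 and 120 CPM for Rps12) than after PBS (80.5 and 47.5 CPM, and 29.7 and 20.7 CPM).

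Rpl3l itself had 373 and 348 CPM after rIL-17A, against 264 and 339 CPM after PBS (0.11 ± 0.21, adjusted p = 0.73). It made up 76.5% and 73.0% of the pair after rIL-17A, against 41.0% and 57.7% after PBS, a difference of 25.4 percentage points with no overlap. The exact permutation p was 0.333, the smallest that 6 relabellings allow. Some other muscle markers moved as well. All 8 regenerating myofibre markers were lower after rIL-17A, with sums of 872 to 1115 CPM against 1868 to 2509 CPM after PBS. Of 10 macrophage markers, 6 were lower, with sums of 633 to 801 CPM against 1484 to 2021 CPM. Of all genes tested, 16.1% were lower. The mature myofibre markers, given above for the 4 days, are not given for this comparison, so the lists shown are a selection. Mitochondrially encoded genes held 3.43% to 4.71% of counts after rIL-17A, against 8.50% to 9.24% after PBS. Their part in the changes was not tested.

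The order of the members after rIL-17A resembled their order in the step from day 7 to day 14, which shares no library with it. This likeness was looked for after the values had been seen. Over 79 members the log2 fold changes correlated with Pearson's r = 0.794 and Spearman's rho = 0.817 for the DTR step, and r = 0.778 and rho = 0.732 for the WT step. Over 12840 genes r was 0.635 for the DTR step and 0.548 for the WT step. These are correlations across genes, which are not independent replicates. All 11 members lower after rIL-17A also fell from day 7 to day 14 in both genotypes, where they were 20.4% of those that fell in DTR muscle and 22.0% in WT muscle. Of the 12 members higher after rIL-17A, 0 fell in that step in DTR muscle and 1 (8.3%) in WT muscle, against 68.4% of all members in DTR muscle and 63.3% in WT muscle.

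In satellite cells on day 1, 0 of 79 members passed between DTR and WT mice, and 0% of 12081 genes did. At an unadjusted p under 0.05 there were 0 members and 719 genes, and DESeq2 called 0 members. The median log2 fold change of the members was -0.19, against 0.02 for all genes, and 76 of 79 lay below 0. Without replicate 1 of the DTR cells the median was -0.16 and 0 members passed. Rpl36, a large subunit protein, had 252, 232 and 253 CPM in DTR mice, against 285, 259 and 363 CPM in WT mice (-0.31 ± 0.15, adjusted p = 0.818). Every DTR library lay below every WT library for this gene. Rpl3 differed by -0.20 ± 0.13 (adjusted p = 0.844). The satellite cell markers summed to 4703 to 5889 CPM in DTR mice and 5844 to 6783 CPM in WT mice, and their part was not tested.

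Part of the family was slightly lower in Vγ6 T cells from injured muscle than in those from colon. Of 79 members, 20 were lower and 2 higher in muscle, against 12.2% lower and 12.3% higher of 11907 genes. The median log2 fold change of the members was -0.15, against -0.01 for all genes. Rpl3 had 700, 693 and 687 CPM in muscle, against 944, 939 and 933 CPM in colon (-0.47 ± 0.07, adjusted p = 0.000156). Rpl13, a large subunit protein, had 440, 453 and 414 CPM in muscle, against 521, 565 and 605 CPM in colon (-0.40 ± 0.08, adjusted p = 0.00164). Rps4l had 40.9, 38.2 and 38.2 CPM in muscle, against 54.6, 54.0 and 53.2 CPM in colon (-0.49 ± 0.15, adjusted p = 0.0238). The groups did not overlap for any of the 3 genes.

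Rpl13a was higher in muscle (0.45 ± 0.14, adjusted p = 0.0306). Rpl13a and Rps4l lost their call when single libraries were left out, with adjusted p up to 0.142 for Rpl13a and 0.0704 for Rps4l, while Rpl3 and Rpl13 kept theirs (adjusted p at most 0.00206 and 0.015). Without the filter on low counts 10 members were called. The count was 13 without replicate 2 and 11 without replicate 3 of the colon, and 13, 11 and 7 without replicates 1, 2 and 3 of muscle. The T cell markers summed to 7204 to 7417 CPM in muscle and 4808 to 5472 CPM in colon, and their part was not tested.

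Genes for the assembly of the ribosome had medians below 0 at the first step, where those for its proteins had medians above 0. Of 34 genes for ribosome biogenesis, 0 rose and 9 fell from day 1 to day 3 in DTR muscle, and 1 rose and 12 fell in WT muscle, with medians of -0.42 and -0.54. At that step 5.85% of all genes fell in DTR muscle and 9.36% in WT muscle. With library size alone the medians were -0.21 and -0.14, against 0.12 in DTR and 0.40 in WT muscle for all genes. Under that scaling 1 gene rose and 5 fell in DTR muscle, and 3 rose and 6 fell in WT muscle. From day 3 to day 7, 18 fell and 1 rose in DTR muscle and 23 fell and 2 rose in WT muscle, where 18.4% and 19% of all genes fell. In Vγ6 cells 16 of 34 were lower in muscle than in colon and 0 higher, with a median of -0.42, against 12.2% of all genes lower. Among these were Myc, the transcription factor that drives many of them (-1.84 ± 0.15, adjusted p = 4.97e-07), Nop58 of the box C/D particles that modify ribosomal RNA (-0.88 ± 0.11, adjusted p = 4.25e-05) and Npm1, nucleophosmin (-0.58 ± 0.08, adjusted p = 5.16e-05).

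Of 18 translation factors, 6 were higher and 6 lower after rIL-17A, against 18.1% of all genes higher and 16.1% lower. Eef1a2, the elongation factor of mature muscle fibres, was 3.38 ± 0.37 higher (adjusted p = 7.44e-05), Eif3f, a subunit of initiation factor eIF3, 2.09 ± 0.22 higher (adjusted p = 5.84e-05) and Tpt1, whose mRNA also carries a TOP tract, 2.05 ± 0.20 higher (adjusted p = 3.24e-05). In WT muscle of the time course on day 7, however, Eif3f had 138 ± 115 CPM (mean ± SD), a spread that its SE leaves out. Eef1a2 stands in for Eef1a1 in mature fibres. Its percentage of their summed counts was 9.21 ± 5.66 on day 1, 3.05 ± 0.70 on day 3, 3.09 ± 1.84 on day 7 and 32.0 ± 3.16 on day 14 in DTR muscle, and 10.9 ± 1.72, 2.31 ± 1.71, 4.53 ± 1.68 and 39.4 ± 1.59 in WT muscle (SD). On day 7 it was 20.3 ± 5.38 after rIL-17A, against 2.55 ± 2.01 after PBS. Both muscle forms, Rpl3l and Eef1a2, had their highest percentage on day 14 and their lowest mean on day 3, although for Eef1a2 days 3 and 7 lay within 1 SD of each other in DTR muscle. On day 7 the factor Pabpc1, which binds the poly(A) tail, was higher in DTR than in WT muscle (0.78 ± 0.21, adjusted p = 0.0381), as was the biogenesis factor Nob1 (0.95 ± 0.25, adjusted p = 0.0395). Of all genes, 0.641% were higher in that comparison. No check with a library left out is given for these calls.

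Mitochondrial ribosomal proteins serve the separate ribosome of mitochondria. From day 3 to day 7, where most cytosolic members lay below 0, 73 of 78 mitochondrial ones rose and 0 fell in DTR muscle, and 69 of 78 rose and 0 fell in WT muscle, with medians of 1.50 and 1.06. Of all genes, 17.1% rose in DTR muscle and 17.9% in WT muscle at that step. With library size alone 40 rose and 3 fell in DTR muscle and 23 rose and 3 fell in WT muscle, with medians of 0.50 and 0.27. The medians of all genes under that scaling were -1.20 in DTR and -0.74 in WT muscle. From day 7 to day 14 most genes of both families fell. This held for 62 of 78 mitochondrial genes in DTR muscle and 43 in WT muscle, against 19.7% and 13.2% of all genes, beside the 54 and 50 of 80 cytosolic members. After rIL-17A 44 of 78 were lower and 3 higher than after PBS, with a median of -0.71, against 16.1% of all genes lower. In that comparison the cytosolic members had 11 lower and 12 higher.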

How the data were processed

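Gene counts per library were deposited by the authors as 1 table of raw counts; per the submitters' processing notes the tools were STAR 2.7.3a and featureCounts (Subread 2.0.0) with mm10, and no source used here gives the settings for strand or for multiply matching reads. Counts on all symbols gave the library total for CPM. Tests used edgeR 4.0.16 in R 4.3.3 (TMM factors, filterByExpr at min.count 10 and min.total.count 15, robust quasi-likelihood fit, Benjamini-Hochberg over all genes, threshold 0.05). The 8 day and genotype groups were fitted together, and each other comparison alone. Alternatives were DESeq2 1.42.0, its size factors, library size alone, no filter, a replicate block, the day fitted alone and leaving out each library. The fits were tested on simulated data. Figures and percentages used Python 3.11.15, and the Rpl3 and Rpl3l coding sequences were aligned with Biopython 1.88. Positions and transcript lengths are from GENCODE vM21 (GRCm38), and promoters from RefSeq (GRCm38.p6).

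The members, gene lists and comparisons were chosen with earlier results of these data known. Named by rule were, in each comparison, the 3 members with the largest fold in each direction past the threshold, or the 2 with the smallest p where none passed, and always Rpl3 and Rpl3l. Rps2 and other genes outside this rule were named after their values were seen. Where genes were named for the size of their change, a lack of overlap between groups is description and adds no support. Some members are not reported here by name. Per the labels, groups are 2 to 3 independent biological replicates. Same-numbered replicates did not deviate together (correlations of -0.0764 to 0.0865), so the main tests hold no block. No 2 replicates agreed within sampling noise. Library totals limit the precision of low genes, and intervals cover counting error only.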

Additional observations from a re-analysis of the deposited data

How the results depend on the processing

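Of the 44 named gene values past the threshold, 29 stayed past it under every alternative run. With library size alone the members called numbered 76 (WT muscle, day 3 against day 1), 40 (DTR, day 3 against day 1), 77 (DTR, day 7 against day 3), 31 (DTR, day 14 against day 7) and 0 (DTR against WT, day 7). That last comparison also gave 0 with the replicate block and with the day fitted alone, and 3 with DESeq2. Without the filter on low counts there were 10 in Vγ6 cells and 1 for genotype by day. The shares of all genes called that are given above are those of the main fit. Counts under the alternatives therefore have no such share beside them. Leaving out 1 library at a time gave 0 to 1 (DTR against WT, day 7), 7 to 22 (Vγ6), 12 to 28 (rIL-17A), 23 to 44 (WT, day 3 against day 1), 1 to 23 (DTR, day 3 against day 1), 14 to 23 (DTR, day 7 against day 3) and 31 to 45 (WT, day 14 against day 7). In rIL-17A and day 7 DTR muscle the lone sample left is assumed to vary like the others. The within-day Rpl3l difference spanned -4.76 to 0.640 points.

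The replicate numbers do not pair the samples. With them as a block the count was 21 in Vγ6 cells, 18 after rIL-17A, and within 3 of the count without it in the steps between days. With ribosomal genes outside the rule and -ps symbols added, the summed shares were 0.907% (day 14 WT), 1.34% (rIL-17A), 6.11% (DTR satellite cells), 4.42% (muscle Vγ6) and 4.72% (colon Vγ6).

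Values near 0 changed sign, none of them called except Rps27l. Between DTR and WT muscle, Rpl3 on day 1 was 0.055 with library size alone and spanned -0.27 to 0.034 with 1 library left out, and on day 3 it spanned -0.30 to 0.15. Rpl3l was -0.067 without the filter and -0.036 with the block on day 1 (-0.22 to 0.22), -0.15 with library size alone and -0.023 with day 7 alone (-0.30 to 0.47), and -0.037 without the filter and -0.011 with day 14 alone (-0.072 to 0.10). After rIL-17A it spanned -0.10 to 0.36. Rps27l from day 3 to day 7 in WT muscle was -0.30 with library size alone. The causes were not tested.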
